A study of Mus musculus with 8 samples.

Results

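The synaptonemal complex is built from a small set of meiosis-specific proteins, and the mRNAs of 8 of its genes were measured in whole mouse testes after deletion of *Spdya* in germ cells. The genes were chosen by name: *Sycp2* and *Sycp3* of the chromosome axis, *Sycp1* of the transverse filament, *Syce1*, *Syce2*, *Syce3* and *Tex12* of the central element, and *Trip13*, the AAA-ATPase that remodels HORMA-domain proteins on the axis. All 8 names had 1 row each in the table of 54532 genes, and all 8 were among the 12141 protein-coding genes with a mean above 1 FPKM in both groups that entered the test. FPKM is a gene's fragment count divided by its length in kilobases and by a scaled library size.

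The control mice were *Spdya* fl/fl and the cKO mice were *Spdya* fl/fl;*Ddx4*-CreERT2, both on the C57BL/6J background. *Ddx4*-CreERT2 is active in germ cells only and removes exon 2 of *Spdya* after tamoxifen, which the mice of both groups received on RA7.5 and RA8.5 according to the sample labels. RA counts the days after the retinoic acid injection that released spermatogenesis from a block by an inhibitor of retinoic acid synthesis. The mice of both groups had been given that inhibitor daily for 7 days from postnatal day 2 and the retinoic acid on postnatal day 9. Testes were collected on RA11.5, or postnatal day 20.5, when the labels place the synchronized spermatocytes in mid-late pachytene. Each group held 4 mice, with 1 library per mouse.

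The synaptonemal complex forms between homologous chromosomes during meiotic prophase. SYCP2 and SYCP3 coat the axis of each chromosome, SYCP1 molecules reach across from one axis to the other, and SYCE1, SYCE2, SYCE3 and TEX12 join the SYCP1 ends in the central element. The Y axis synapses along much of the X axis early in pachytene, and synapsis is later limited to the short region the sex chromosomes share. The series was designed to study pachytene spermatocytes in which the full synapsis of Y with X persists. The comparison of the 8 genes asks whether the mRNA of the complex's own parts differed between such testes and control testes.

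The libraries held 13978342 to 17867570 fragments in the control group and 15494873 to 19583091 in the cKO group. *Spdya* itself had 19.7 to 23.8 FPKM in the control libraries and 17.7 to 30.5 FPKM in the cKO libraries, so its level over the whole gene gave no check of the labels or of how many cells had lost the exon. Spermatocyte markers were abundant: their summed level was 831.3 to 1353 FPKM in the control libraries and 644.2 to 997.3 FPKM in the cKO libraries. The spermatid markers *Acrv1*, *Tnp1*, *Tnp2*, *Prm1* and *Prm2* stayed under 1 FPKM in all 8 libraries, while the sixth, *Spaca1*, had 1.92 to 8.99 FPKM. Whole testes also hold other cells, and fewer spermatocytes cannot be told apart from less RNA per spermatocyte. Control replicate 1 stood apart from the other libraries in its mitochondrial fragments, 0.464% against 2.97% to 3.39% in the other control libraries and 2.20% to 3.74% in the cKO libraries.

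The 8 genes lay on 8 different autosomes of GRCm38. *Sycp2* lay at chr2:178345293-178407685, *Sycp3* at chr10:88459569-88473236, *Sycp1* at chr3:102818499-102936100 and *Trip13* at chr13:73911347-73937784. Of the central element genes, *Syce1* lay at chr7:140777229-140787852, *Syce2* at chr8:84872111-84888221, *Syce3* at chr15:89390174-89410503 and *Tex12* at chr9:50556819-50561325. *Sycp3* and *Syce2* were on the plus strand and the other 6 genes on the minus strand. Values are sums over the exons of each gene, UTRs included. Of the 8, *Sycp3* alone shared exonic bases with a neighbour: 660 of its 1264 bases overlapped *Chpt1* on the opposite strand. Whether the counting used strand is not given in the sources used here, so reads of *Sycp3* and *Chpt1* cannot be told apart in the overlap. *Chpt1* itself had 4.31 to 5.40 FPKM.

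Promoter windows from 250 bases before to 50 bases after the RefSeq start were found for all 8 genes (10 windows, GRCm38.p6). The palindromic E-box CACGTG, the core bound by several basic helix-loop-helix factors, was present in 4 of the 10 windows and in 4 of the 8 genes, *Sycp3*, *Sycp1*, *Syce2* and *Tex12*. Among all 32851 RefSeq windows of the same length, 7.15% held it. In *Syce2* the E-box was only in the second window, at -88 from a RefSeq start 147 bases inside the gene span given above. That E-box thus lay within the gene. In *Sycp3* it began at -64 and again at -43, in *Sycp1* at -94 and in *Tex12* at -93, all counted from the RefSeq start. The stretches of 120 bases that hold these E-boxes are shown because the 3 genes include an axis, a transverse filament and a central element gene, with each E-box in capitals and the sequence read along the gene's own strand.
Sycp3, chr10:88459449-88459568, plus strand: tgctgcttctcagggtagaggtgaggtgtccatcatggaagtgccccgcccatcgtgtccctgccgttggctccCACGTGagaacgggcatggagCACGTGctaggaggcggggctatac
Sycp1, chr3:102936115-102936234, minus strand: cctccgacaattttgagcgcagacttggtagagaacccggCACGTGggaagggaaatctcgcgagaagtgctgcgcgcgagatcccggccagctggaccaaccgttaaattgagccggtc
Tex12, chr9:50561326-50561445, minus strand: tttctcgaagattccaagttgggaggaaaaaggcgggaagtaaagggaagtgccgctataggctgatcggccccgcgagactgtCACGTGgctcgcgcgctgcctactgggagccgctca

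A further 3 motifs were searched on both strands. GCGGGA, of the type bound by E2F factors, was in 5 of the 10 windows and in 6562 of all 32851 windows. Those 5 windows belonged to 4 genes (*Sycp3*, *Sycp1*, *Syce2* and *Tex12*). TAACNG, of the type bound by MYB factors, was in 6 of the 10 windows and in 23.3% of all windows. Those 6 windows belonged to 5 genes (*Sycp2*, *Sycp1*, *Syce1*, *Syce2* and *Syce3*). The *Syce2* windows overlap, and their TAACNG match is the same site. CNCCTCAG, of the type bound by the meiotic initiator STRA8, was in 3 of the 10 windows and in 7.94% of all windows. Those 3 windows belonged to 3 genes (*Sycp1*, *Syce2* and *Tex12*). None of the 4 motifs contains another, the E-box reads the same on both strands, and the motifs were chosen after the windows had been seen. A match describes letters in the window and not a bound site.

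The levels of the 8 genes differed widely and formed an order. Over all 8 libraries *Sycp1* had the highest mean, 141.6 FPKM, which lay above 98.8% of the genes tested. It was followed by *Sycp3* at 115 FPKM and *Sycp2* at 101 FPKM. *Sycp1* exceeded *Sycp3* in 7 of 8 libraries and *Sycp3* exceeded *Sycp2* in 6 of 8, so neither order held in every library. *Syce1* came next at 83.1 FPKM and was below *Sycp2* in 8 of 8 libraries. The small central element proteins were encoded by less abundant mRNAs, with means of 48.6 FPKM for *Syce3*, 47.5 FPKM for *Tex12* and 26.8 FPKM for *Syce2*. *Syce3* exceeded *Tex12* in 7 of 8 libraries although their means differed by little. *Trip13* was lowest at 14.0 FPKM in the mean, below *Syce2* in 8 of 8 libraries and above 62.8% of the genes tested. In each library between 314 fragments (*Syce3*, in the lowest library) and 13063 fragments (*Sycp2*, in the highest) stood behind a value.

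Both axis genes had lower means in the cKO testes, and neither passed the test. *Sycp2*, whose protein links SYCP3 to the chromosome axis, had 101, 101, 132 and 112 FPKM in control replicates 1 to 4 and 113, 86.9, 84.6 and 75.6 FPKM in cKO replicates 1 to 4. The cKO libraries 2 to 4 lay below every control library, while cKO replicate 1 lay above 3 of the 4 control libraries, so the groups overlapped. The group means were 111 ± 14.5 FPKM and 90.0 ± 16.0 FPKM (SD, n = 4 each). The log2 fold change was -0.31 (standard error 0.15, 95% interval -0.65 to 0.02, limma adjusted p = 0.495), and an exact permutation test over the libraries gave p = 0.114 (two-sided, unadjusted).

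*Sycp3*, the main filament-forming protein of the axis, had 174, 103, 113 and 101 FPKM in the control libraries and 138, 90.9, 109 and 90.6 FPKM in the cKO libraries. The range of the control group was set by replicate 1, and the other 3 control libraries overlapped with the cKO libraries. The means were 123 ± 34.6 FPKM and 107 ± 22.3 FPKM (SD, n = 4 each), with a log2 fold change of -0.18 (standard error 0.20, 95% interval -0.64 to 0.27, limma adjusted p = 0.801). Without control replicate 1 this estimate was -0.004, and without cKO replicate 1 it was -0.31.

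*Sycp1* encodes the transverse filament protein. It had 138, 135, 165 and 142 FPKM in the control libraries and 182, 120, 139 and 112 FPKM in the cKO libraries. The highest and the lowest value of all 8 libraries were both in the cKO group, and the means, 145 ± 13.7 and 138 ± 31.0 FPKM (SD, n = 4 each), differed by less than the spread. The log2 fold change was -0.09 (standard error 0.16, 95% interval -0.45 to 0.28, limma adjusted p = 0.885). Without cKO replicate 4 the estimate was 0.004, and without cKO replicate 1 it was -0.23.

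The central element genes overlapped between the groups in all 4 cases. *Syce1*, which encodes a protein bound to the ends of SYCP1, had 90.1, 90.9, 96.0 and 75.4 FPKM in the control libraries and 93.7, 77.1, 75.5 and 65.7 FPKM in the cKO libraries. Only cKO replicate 4 lay below the lowest control library. The log2 fold change of *Syce1* was -0.18 (standard error 0.13, 95% interval -0.48 to 0.12, limma adjusted p = 0.686). It was -0.10 without cKO replicate 4 and -0.27 without cKO replicate 1.

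*Tex12* and *Syce2* encode partners that assemble together into the filaments of the central element. *Tex12* had 85.3, 42.7, 50.7 and 40.1 FPKM in the control libraries and 53.9, 38.8, 34.4 and 33.9 FPKM in the cKO libraries. Control replicate 1 was above every other library, and cKO libraries 2 to 4 lay below every control library. *Tex12* had the lowest estimate of the 8 genes, a log2 fold change of -0.40 (standard error 0.24, 95% interval -0.94 to 0.14, limma adjusted p = 0.602). It was -0.16 without control replicate 1 and -0.55 without cKO replicate 1. Its partner *Syce2* had 31.7, 28.6, 26.8 and 23.4 FPKM in the control libraries and 31.4, 23.9, 25.5 and 22.8 FPKM in the cKO libraries, nearly the same range. The log2 fold change of *Syce2* was -0.10 (standard error 0.13, 95% interval -0.39 to 0.20, limma adjusted p = 0.844), with values of -0.03 without control replicate 1, -0.04 without cKO replicate 4, -0.06 without cKO replicate 2, -0.17 without control replicate 4 and -0.19 without cKO replicate 1.

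*Syce3*, a small protein that helps recruit the other central element proteins, had 43.3, 56.0, 59.1 and 43.6 FPKM in the control libraries and 60.8, 44.7, 45.3 and 36.2 FPKM in the cKO libraries. The highest and the lowest library were again both cKO, and control replicate 1, which was highest for *Tex12* and *Sycp3*, was here the lowest control library. The log2 fold change was -0.12 (standard error 0.17, 95% interval -0.50 to 0.26, limma adjusted p = 0.845). It was -0.01 without cKO replicate 4 and -0.26 without cKO replicate 1.

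*Trip13* acts on the axis proteins HORMAD1 and HORMAD2, which it helps remove from synapsed chromosomes. It had 17.8, 15.2, 12.6 and 11.8 FPKM in the control libraries and 14.5, 13.6, 13.4 and 13.2 FPKM in the cKO libraries. All cKO values lay inside the control range, and their SD was 0.576 FPKM against 2.71 FPKM in the control group. The log2 fold change was -0.05 (standard error 0.13, 95% interval -0.34 to 0.24, limma adjusted p = 0.925). It was 0.06 without control replicate 1.

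**Figure D1:**
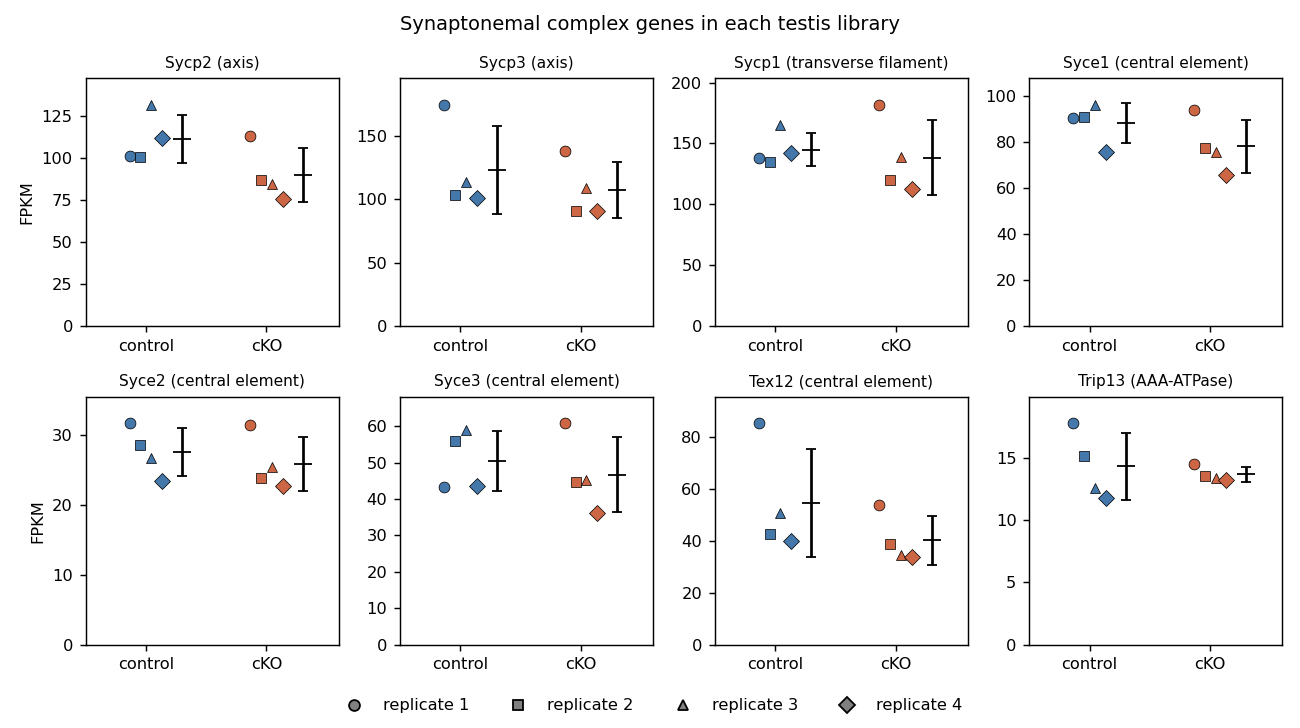
FPKM (y axis, from 0) of the 8 genes in each control (blue) and cKO (orange) library, with 1 symbol per replicate number and the mean ± SD of each group in black. The groups overlap in all 8 panels: for example, Sycp2 spans 101 to 132 FPKM in the control and 75.6 to 113 FPKM in the cKO libraries, and cKO replicate 1 is the highest cKO library in each panel.

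None of the 8 genes was called DE (an adjusted p under 0.05 in limma together with a log2 fold change beyond 1 in size), and none had an unadjusted p below 0.05. Over all 12141 genes 0.0165% were called DE and 10.9% had an unadjusted p below 0.05, so calls were rare everywhere and a count of 0 among 8 was not apart from that background. The groups overlapped in all 8 genes, while they did not overlap in 6.24% of all genes tested. All 8 estimates were below 0 with the deposited scaling (48.0% of all genes) and when centred on the autosomal median (43.8%), 7 of 8 after rescaling to TPM (32.6%), 5 of 8 when centred on *Ddx4* and *Dazl* (28.9%), and 0 of 8 when centred on the spermatocyte markers (4.06%). Each of these centrings shifts all genes alike, and the spermatocyte centring moved the median of all genes from 0.01 to 0.42. The median of the 8 was -0.15 beside 0.01 over all genes tested, and it was 0.26 under the spermatocyte centring, below the all-gene median. The 8 values share their libraries and are not 8 independent observations of a direction. The 95% intervals reached from -0.94 to 0.28 and so lay inside the fold change threshold in both directions.

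**Figure D2:**
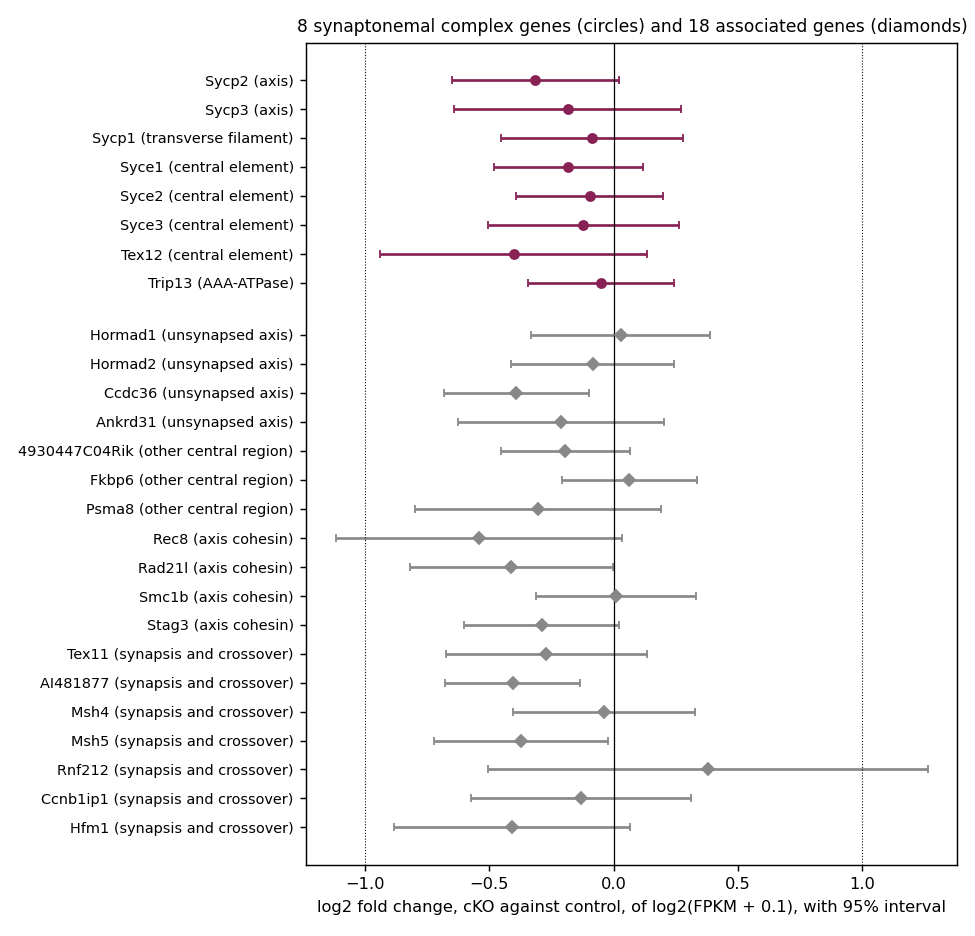
Log2 fold change of cKO against control (x axis, on the log2(FPKM + 0.1) scale) with its 95% interval from limma for the 8 genes (circles) and 18 associated genes (diamonds), where dotted lines mark the threshold of 1 in either direction. The 8 estimates run from -0.40 to -0.05 and all 8 intervals cross 0, and the number below 0 is also 8 after centring on the autosomal median, 7 after TPM rescaling, 5 after centring on Ddx4 and Dazl and 0 after centring on spermatocyte markers.

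Markers of spermatocytes, the cells that make the complex, also had a lower mean level in the cKO libraries. The groups overlapped, from 5.09 to 5.64 in the control and from 4.68 to 5.31 in the cKO libraries. The 6 spermatocyte markers had a mean level of 5.39 ± 0.23 on the log2(FPKM + 0.1) scale in the control libraries and 4.98 ± 0.26 in the cKO libraries (SD, n = 4 each), a difference of -0.41. *Ldhc*, the germ cell form of lactate dehydrogenase, had a log2 fold change of -0.73 (limma adjusted p = 0.287), *Piwil1* -0.40 (adjusted p = 0.442) and the heat shock gene *Hspa2* -0.30 (adjusted p = 0.664). *Mybl1* had -0.29 (limma adjusted p = 0.514) and *Pgk2* -0.02 (limma adjusted p = 0.976). None of the 5 that were tested was called DE. Of these 5, 2 had an unadjusted p below 0.05 (*Ldhc* and *Piwil1*), beside 10.9% of all genes tested. All 5 had estimates below 0, beside 48.0% of all genes. The pan-germ-cell genes *Ddx4* and *Dazl* differed by -0.10 in their mean level. Sertoli markers summed to 974.2 to 1315 FPKM in the control libraries and 1304 to 1547 FPKM in the cKO libraries, with estimates above 0 in 6 of 6 genes and 0 called or with an unadjusted p below 0.05. Of the 46 markers of all cell types, 35 entered the limma test, 0 were called DE and 10 had an unadjusted p below 0.05, 4 of them lower and 6 higher in the cKO libraries. The mean level of the leptotene and zygotene markers differed by -0.46 and that of spermatogonial markers by 0.15. In the leptotene and zygotene list *Stra8*, the meiotic initiator, differed by -1.46 (limma adjusted p = 0.280). The other genes of that list differed by -0.34 (*Prdm9*), -0.12 (*Dmc1*) and 0.10 (*Spo11*), so its mean rested largely on *Stra8*. Among somatic and blood cells the differences were 0.54 for Leydig, 0.48 for macrophage, 0.46 for endothelial, 0.17 for peritubular, 0.16 for Sertoli and 0.88 for erythroid markers, all on the log2 scale and without a test of the lists. The part of these cell type differences in the estimates for the 8 genes was not tested.

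Axis, transverse filament and central element were then compared as mean log2(FPKM + 0.1) per library. The axis genes averaged 6.85 ± 0.18 in the control and 6.60 ± 0.26 in the cKO libraries (SD, n = 4 each), a difference of -0.25. The transverse filament gene *Sycp1* averaged 7.17 ± 0.13 and 7.09 ± 0.31, a difference of -0.09. The central element genes averaged 5.65 ± 0.19 and 5.45 ± 0.25, a difference of -0.20, and *Trip13* averaged 3.83 ± 0.27 and 3.78 ± 0.06, a difference of -0.05. Each difference was smaller than the larger SD of its groups, and under spermatocyte centring the 4 differences were 0.16, 0.32, 0.21 and 0.36. No class was set apart by these values, which had no test because their members were chosen.

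Within a library, scaling cancels. *Sycp1* stood above the axis genes by 0.05 in control replicate 1, by 0.40 to 0.43 in the other control libraries and by 0.43 to 0.54 in the cKO libraries, on the log2 scale. The lowest cKO value (0.433) lay just above the highest control value (0.431), so the groups did not overlap. Ratios of 2 genes did not overlap for 6.85% of all gene pairs tested. No such share was computed for a contrast with the mean of 2 genes, so these values are a description only. The mean difference between the groups was 0.16 with all libraries and 0.07 without control replicate 1, in the same direction. The central element stood below the axis by a similar margin in both groups, with differences of -1.20 ± 0.13 and -1.15 ± 0.06 (SD, n = 4 each).

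**Figure D3:**
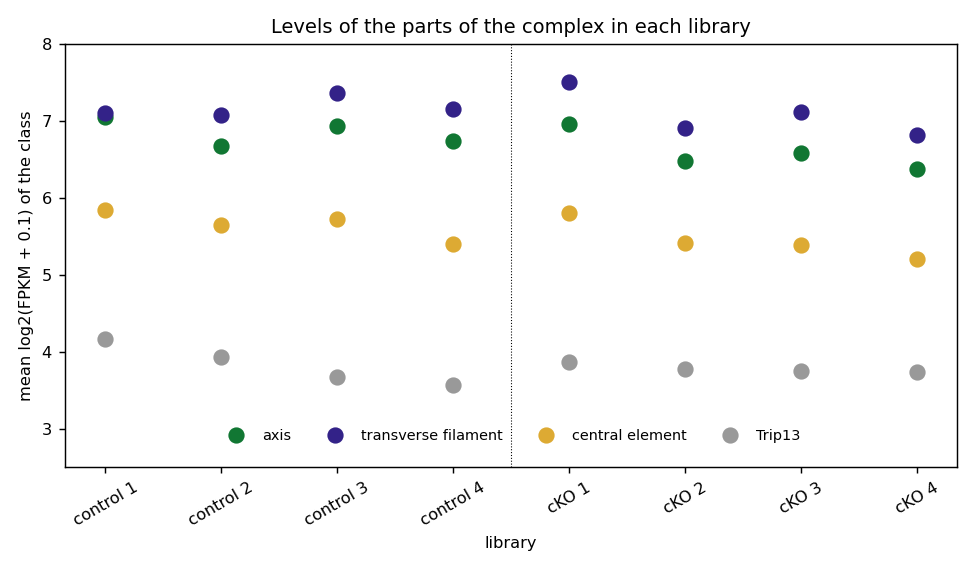
Mean log2(FPKM + 0.1) (y axis) of the axis genes Sycp2 and Sycp3, the transverse filament gene Sycp1, the 4 central element genes and Trip13 in each of the 8 libraries (x axis), with control on the left of the dotted line. Sycp1 is highest and the central element lower in every library, and in control replicate 1 the axis mean (7.05) nearly reaches the Sycp1 level (7.11).

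The 7 structural genes without *Trip13* summed to 600.1 ± 62.3 FPKM in the control and 526.2 ± 102 FPKM in the cKO libraries (SD, n = 4 each), with ranges of 537.6 to 663.6 and 437.1 to 672.3 FPKM that overlapped. Shares of this sum were first taken over the 7 libraries other than control replicate 1. *Sycp1* made up 24.2% to 27.1% of it, *Sycp3* 17.7% to 21.2% and *Tex12* 6.70% to 8.05%. Control replicate 1 departed from all 3 ranges, with 20.8% for *Sycp1*, 26.3% for *Sycp3* and 12.9% for *Tex12*. It also had the smallest share of *Syce3*, 6.53% against 8.11% to 10.1% elsewhere. This was the library with the low mitochondrial share, and the part of that share in these values was not tested.

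Of the 28 ratios between pairs of the 8 genes, 1 did not overlap between the groups, or 3.57%, beside 6.85% of the ratios of all gene pairs tested. The pair, chosen for naming after its values were seen, was *Sycp2* over *Sycp1*. Its ratio was 0.734, 0.748, 0.799 and 0.788 in the control libraries and 0.622, 0.724, 0.608 and 0.673 in the cKO libraries. All cKO ratios lay below all control ratios, by 0.23 in the mean on the log2 scale, but a share below the background is no result about the complex. *Sycp3* over *Sycp1* was 1.26 in control replicate 1 and 0.688 to 0.806 in the other 7 libraries.

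**Figure D4:**
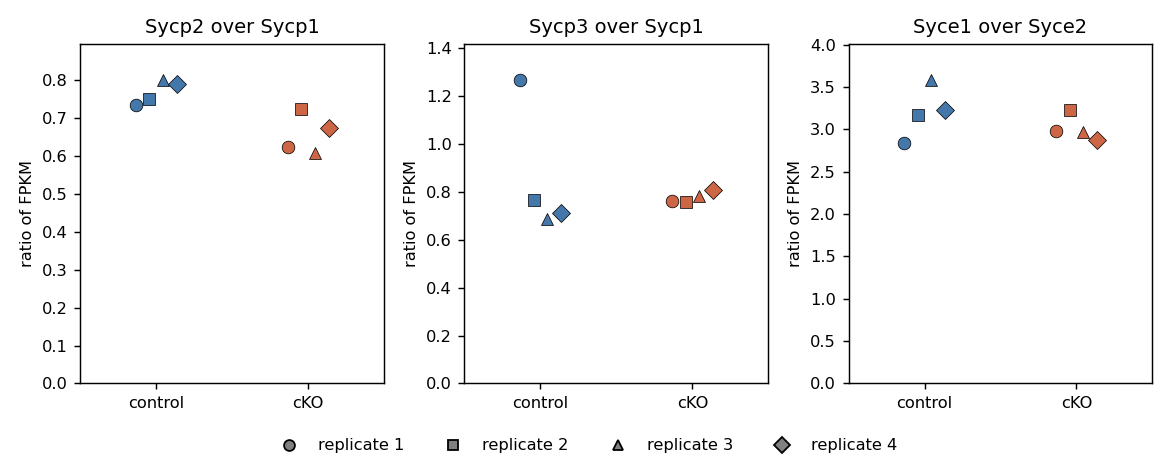
Ratios of FPKM between 2 genes of the same library (y axis, from 0) for Sycp2 over Sycp1, Sycp3 over Sycp1 and Syce1 over Syce2, in control (blue) and cKO (orange) libraries with 1 symbol per replicate number. Sycp2 over Sycp1 is 0.734 to 0.799 in the control and 0.608 to 0.724 in the cKO libraries, and Sycp3 over Sycp1 is 1.26 in control replicate 1 alone.

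The 8 genes had the same highest and the same lowest cKO library. Replicate 1 was the highest cKO library in 8 of 8 genes and replicate 4 the lowest in 8 of 8, and replicate 4 was also the lowest of all 8 libraries in 7 genes. No share of all genes with this order was computed, so it is a description only. *Ddx4* (251.9 and 168.7 FPKM) and *Dazl* (166.1 and 126.1 FPKM) were also highest in cKO replicate 1 and lowest in cKO replicate 4. The mean deviation from the mean of all libraries was 0.24 for cKO replicate 1 and -0.31 for cKO replicate 4 on the log2 scale. The spermatocyte marker level lay in the same order, 5.31 in cKO replicate 1 and 4.68 in replicate 4, and that of the Sertoli markers in the opposite one, 6.04 and 6.36. In the control group no library was highest or lowest for all 8 genes. Replicate 3 was highest for *Sycp2*, *Sycp1*, *Syce1* and *Syce3*, and replicate 1 for *Sycp3*, *Syce2*, *Tex12* and *Trip13*. Replicate 4 was the lowest control library for *Sycp3*, *Syce1*, *Syce2*, *Tex12* and *Trip13*, replicate 2 for *Sycp2* and *Sycp1*, and replicate 1 for *Syce3*. The spermatocyte marker level was also lowest in control replicate 4, at 5.09, and it was highest in control replicate 3, at 5.64. The mean deviation of the 8 genes was instead highest in control replicate 1, at 0.27. That library also had the highest Sertoli marker level of the control group, 6.24.

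**Figure D5:**
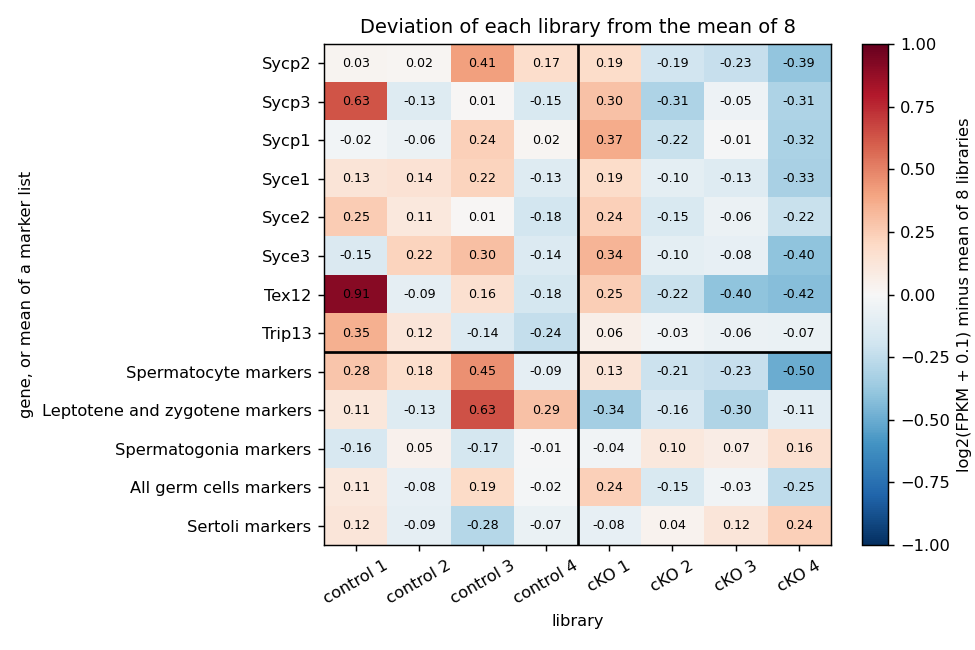
Deviation of each library (x axis) from the mean of 8 libraries, in log2(FPKM + 0.1), for the 8 genes and for the mean of 5 marker lists (y axis), with red above and blue below the mean. In cKO replicate 4 all 8 genes are below 0, from -0.07 for Trip13 to -0.42 for Tex12, beside -0.50 for the spermatocyte markers and 0.24 for the Sertoli markers, and control replicate 1 holds the highest single values, 0.91 for Tex12 and 0.63 for Sycp3.

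The other genes of the axis and of synapsis were counted as a list of 18. None of the 18 was called DE, 4 had an unadjusted p below 0.05 (*Ccdc36*, *Rad21l*, *AI481877* and *Msh5*) where 10.9% of all genes did, and 14 of the 18 estimates were below 0 beside 48.0% of all genes, a number that was 14 after centring on the autosomal median (43.8% of all genes), 13 after TPM rescaling (32.6%), 12 after centring on *Ddx4* and *Dazl* (28.9%) and 2 under spermatocyte centring (4.06%). The median of the list was -0.24 beside 0.01 over all genes, and its genes share the same libraries and the same marker differences. By subgroup, the estimates below 0 were 3 of 4 axis cohesins, 3 of 4 proteins of the unsynapsed axis, 2 of 3 other central region genes and 6 of 7 genes of synapsis initiation and crossover.

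The axis cohesins are the meiotic cohesin subunits on which the axis is built. *Rec8*, the meiotic kleisin, had 32.9, 16.2, 35.6 and 16.7 FPKM in the control libraries and 13.7, 17.7, 17.3 and 16.7 FPKM in the cKO libraries. Control replicates 1 and 3 were high and the other 2 lay among the cKO libraries, and the estimate on the log2 scale was -0.54 (SE 0.26, limma adjusted p = 0.495). The other kleisin, *Rad21l*, had 2.19 to 2.90 FPKM and 1.57 to 2.63 FPKM, a log2 fold change of -0.41 (adjusted p = 0.454 in limma), with cKO replicate 4 inside the control range. *Stag3*, the meiotic STAG subunit, had 72.0 to 106.6 FPKM and 65.1 to 79.6 FPKM (log2 fold change -0.29, limma adjusted p = 0.498).

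Of the recombination genes, *AI481877*, also known as *Shoc1*, had 7.11, 5.49, 7.58 and 6.23 FPKM in the control and 5.39, 4.83, 4.74 and 4.75 FPKM in the cKO libraries. It was the only one of the 18 whose groups did not overlap, beside 6.24% of all genes in either direction and 2.59% in that direction. The estimate on the log2 scale was -0.41 (SE 0.12, limma adjusted p = 0.286). *Msh5*, of the MutS gamma complex, had a log2 fold change of -0.37 (limma adjusted p = 0.442). *Ccdc36*, also known as *Iho1*, which promotes double-strand breaks on the unsynapsed axis, had -0.39 (limma adjusted p = 0.330). *Hormad1*, a substrate of TRIP13, had 106.4 to 140.02 FPKM in the control and 102.5 to 164.4 FPKM in the cKO libraries, with a log2 fold change of 0.03 (limma adjusted p = 0.962).

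The tested genes most like *Sycp1* and *Sycp3* in their pattern over the 8 libraries were listed with the 8 genes left out. The lists thus cannot tell whether a gene of the complex was more alike. For *Sycp1*, Pearson's r of log2(FPKM + 0.1) was 0.984 with *Sec23a*, 0.960 with *Ccnyl1* and 0.951 with *Cfl2*. For *Sycp3* it was 0.993 with *Arl4a*, 0.984 with *Spcs3* and 0.979 with *Saal1*, and 81 tested genes other than *Sycp3* itself exceeded 0.95. The 8 points of each correlation share their library and depth, and the high value of control replicate 1 is a point of every *Sycp3* correlation, so these values are a description only.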

How the data were processed

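RNA of whole testes of 4 control and 4 cKO mice was sequenced as paired ends, with 1 library per mouse. The authors deposited FPKM values, made by the sequencing company's software, for 54532 genes; the labels name the builds GRCm38 and mm10. The aligner, the counting tool and the use of strand are not given in the sources used here. The methods place tamoxifen slightly earlier than the labels and name another RNA extraction. Of the table's genes, 99.8% were in GENCODE vM21, and 98.3% of those had the same start and end.

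FPKM multiplied by gene length gave whole fragments for 100% of values above 0 (tolerance 0.02), at 13978342 to 19583091 per library. 1 fragment on 1 kilobase was worth less than 0.1 FPKM. The main test was limma 3.58.1 in R 4.3.3 (lmFit, eBayes with trend) on log2(FPKM + 0.1) with group as the only term. It covered the 12141 protein-coding genes whose mean exceeded 1 FPKM in each group. DE calls followed the thresholds of the methods, a p under 0.05 after Benjamini-Hochberg adjustment together with a log2 fold change beyond 1 in size. The count-based test of the methods was not run. Fold changes on this scale understate those of low genes. Intervals are limma's 95% intervals, unadjusted. Exact permutation tests used all 70 assignments of the 8 libraries (smallest p 0.0286). The procedure was tested on simulated data. Whether a replicate number marks a litter is not stated. Deviations of control and cKO libraries with the same number, 1 to 4, correlated at r = 0.288, 0.131, 0.0757 and 0.406. The highest r of the same control library with another cKO number was -0.0779, 0.0774, 0.128 and 0.162, lower in all but replicate 3. Because the meaning of the numbers is not given, they were not used as pairs in the main test. A replicate block was run as an alternative.

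The 8 genes, the 18 associated genes, the 46 cell type markers and the tests were chosen with earlier results of these data known. All 8 genes are named. Of the associated genes, the 6 with the smallest unadjusted p were named by rule, and *Hormad1* was added as a TRIP13 substrate after its values were seen. The likeness rule left out the 8 genes and took the 3 others with the highest r. Alternatives were other pseudocounts, filters, centrings and TPM scaling, array weights, a replicate block, voom on recovered fragments, eBayes without trend and leaving out each library. Promoter windows are from RefSeq (GRCm38.p6). Figures were drawn with matplotlib 3.10.9.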

Additional observations from a re-analysis of the deposited data

Results flagged for a closer look

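Dixon's test at the 95% level was run in each group of 4 libraries on the 8 genes, *Spdya*, the 18 associated genes, the class levels and the mitochondrial share. Of these 64 tests about 3.2 would be marked by chance, and 6 were marked. *Sycp3* had 174 FPKM in control replicate 1, where the other control libraries had 101 to 113 FPKM. The same library had a mitochondrial share of 0.464% of fragments, where the other control libraries had 2.97% to 3.39%. *Rnf212* had 2.41 FPKM in control replicate 1 as well, where the other control libraries had 9.18 to 10.1 FPKM. *Hormad2* had 22.8 FPKM in cKO replicate 1 against 15.2 to 16.2 FPKM in the other cKO libraries. *AI481877* (*Shoc1*) had 5.39 FPKM in cKO replicate 1 against 4.74 to 4.83 FPKM in the other cKO libraries. *Rad21l* had 2.63 FPKM in cKO replicate 4 against 1.57 to 1.68 FPKM in the other cKO libraries. The last 2 are departures in low genes, with 44 to 74 fragments per library behind *Rad21l*.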

How the results depend on the processing

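Each of the 20 alternatives called 0 of the 8 genes and 0 of the 18 associated genes DE, and in 160 refits of single genes no adjusted p was below 0.05, the lowest being 0.103. The number of the 8 with an unadjusted p below 0.05 was 3 with array weights (*Sycp2*, *Syce1* and *Tex12*), 1 with voom, 1 with the replicate block (*Tex12*) and 0 to 1 when 1 library was left out (1 without control replicate 1 and 1 without cKO replicate 1). Of all 12141 genes, 2543 had an unadjusted p below 0.05 with array weights, 1286 with voom and 1777 with the replicate block. The main test had 1322 such genes. Without control replicate 1 there were 1889 of 12137, and without cKO replicate 1 there were 1549 of 12145. The replicate block called 0 genes of all 12141, and array weights called 57 where the main test called 2. Centring on spermatocyte markers moved the median of the 8 to 0.26 and turned every estimate: *Sycp2* to 0.094, *Sycp3* to 0.22, *Sycp1* to 0.32, *Syce1* to 0.23, *Syce2* to 0.31, *Syce3* to 0.29, *Tex12* to 0.0078 and *Trip13* to 0.36. The axis, transverse filament, central element and *Trip13* differences then were 0.16, 0.32, 0.21 and 0.36, because that centring raised every gene's log2 fold change by 0.41 and so the median of all genes from 0.01 to 0.42. Centring on *Ddx4* and *Dazl*, added after the marker values were seen, gave 0.012 for *Sycp1*, 0.0032 for *Syce2* and 0.049 for *Trip13*, with a median of all genes of 0.11. *Trip13* was 0.029 after TPM scaling. With 1 library left out, *Trip13* ranged from -0.14 (without control replicate 4) to 0.060 (without control replicate 1) and *Sycp1* from -0.23 (without cKO replicate 1) to 0.0040 (without cKO replicate 4). Centring on *Ddx4* and *Dazl* raised the median of all genes by 0.099, and TPM scaling raised it by 0.079. Negative estimates smaller in size than such a shift turn sign by arithmetic. For the signs turned by leaving out a library the cause was not tested. The estimates rest on 4 mice per group, and the median standard error of all genes was 0.15 on the log2 scale.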
